A study of Mus musculus with 41 samples.

Results

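The genes described here were 33 master transcription factors of lineages other than cartilage, out of 21883 protein-coding genes of the mouse RefSeq table. They were taken by name: 15 neural factors (Neurog1, Neurog2, Neurod1, Neurod2, Olig1, Olig2, Pax6, Lhx2, Lhx3, Lhx5, Isl1, Otx1, Otx2, Nkx2-2 and Nkx6-1), 3 of gut and related endoderm (Nkx2-1, Cdx2 and Hnf4a), 5 of heart (Nkx2-5, Gata4, Gata6, Tbx20 and Hand1), 6 of blood (Gata1, Gata2, Gata3, Tal1, Spi1 and Pax5) and 4 of kidney (Pax2, Pax8, Wt1 and Six2). Several of them also act in other tissues, and the groups are working names. Their histone marks were read from chromatin immunoprecipitation and sequencing (ChIP-seq) of 2 kinds of mouse chondrocyte, isolated on a cell sorter. Hypertrophic chondrocytes (HC) were taken at embryonic stage E15.5 from mice with Tg(Col10a1-cre)1427Vdm, a Cre driven by the Col10a1 promoter. Proliferating chondrocytes (PC) were taken at stage E13.5 from mice with Tg(Col2a1-cre)1Star, a Cre driven by the Col2a1 promoter. Both strains carried the reporter Gt(ROSA)26Sortm1(EYFP)Cos, so cell type, age and strain differ together and cannot be told apart. For each of 6 histone modifications there were 2 HC and 3 PC libraries, named here by their number in the labels. Whether those of a group came from separate litters is not stated, so a p-value here speaks only of the spread among these libraries, which may be technical.

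A master transcription factor is one that directs cells into a lineage, and in cells of other lineages its gene is usually kept silent. In mammalian development many such genes are held by Polycomb group proteins, which bind CpG-rich promoters and trimethylate lysine 27 of histone H3 (H3K27me3). H3K4me3 marks promoters that are active or poised, and a promoter with both of these marks is called bivalent. H3K9ac and H3K27ac accompany active promoters, H3K36me3 lies over transcribed gene bodies, and H3K9me3 is best known from heterochromatin and repeats.

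The deposited lists give regions by chromosome, start and end with no score or read count, so the depth behind a region is unknown, and every value below is a share of bases covered by regions. A list held 20133 to 105752 regions for the 3 marks whose edges lay on a 200 bp grid (H3K4me3, H3K9ac and H3K27ac) and 17842 to 192688 for the others, on an 800 bp grid. All 6 housekeeping genes checked (Actb and others) carried H3K4me3, H3K9ac, H3K27ac and H3K36me3 in every library, and none carried H3K27me3 in every library. Chondrocyte markers carried H3K4me3 in all 5 libraries for 8 of 9 genes. The 7 hypertrophic markers (Col10a1, Ihh and others) did not set HC apart by H3K4me3. Their summed H3K4me3 coverage was 60 to 80.1 in HC libraries and 100 to 145 in PC libraries, in percent of the window added over genes. Of the 7, 4 were at 0 in both HC libraries, against 3 in all PC libraries. Their summed H3K27me3 coverage was 179.6 to 179.8 in HC libraries and 78.6 to 118.6 in PC libraries. Limma called Col10a1 higher in HC for H3K27me3. Summed over the 9 chondrocyte markers, H3K4me3 coverage was 425 to 518 in HC libraries and 540 to 625 in PC libraries, and H3K27ac coverage 386 to 479 in HC and 679 to 732 in PC. For H3K27ac limma called Col9a1 and Matn1 lower in HC. The Col2a1 promoter differed the other way, with H3K4me3 over 79.4% ± 3.54 in HC (SD, n = 2) and 8.33% ± 2.89 in PC (SD, n = 3). Limma called it higher in HC for H3K4me3 and for H3K9ac. In mixed cells, a mark on fewer cells and a weaker mark on every cell cannot be told apart.

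The promoters of most of these genes are rich in CpG. RefSeq start sites for build GRCm38.p6 were listed for 25 of the 33, each with 300 bases of sequence. The ratio of observed to expected CpG had a median of 0.791 in the 25 genes, against 0.609 in 17491 genes with a listed start, and reached 0.6 in 19 of the 25 (76%), against 50.9% of all. Genes with H3K27me3 in all 5 libraries, 2505 of them with a listed start, had a median of 0.691. The bases before the start are given here for the 3 genes with the highest ratio and for 2 of the 3 with the lowest, with each CpG in capitals, 5′ to 3′ on the gene's strand, so that the contrast in CpG can be seen. Gata1, with the lowest ratio (0.167), is left out because its listed start and the bases before it lie inside its gene record. The listed start of Hnf4a also lies inside its record, which begins at 163506811. The bases given for Hnf4a therefore stop at the edge of the record, short of the start.
Nkx6-1, chr5:101664712-101664861, minus strand: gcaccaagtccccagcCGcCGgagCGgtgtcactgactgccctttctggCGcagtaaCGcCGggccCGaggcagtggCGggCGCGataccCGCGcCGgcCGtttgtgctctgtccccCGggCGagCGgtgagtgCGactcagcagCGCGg
Six2, chr17:85688255-85688404, minus strand: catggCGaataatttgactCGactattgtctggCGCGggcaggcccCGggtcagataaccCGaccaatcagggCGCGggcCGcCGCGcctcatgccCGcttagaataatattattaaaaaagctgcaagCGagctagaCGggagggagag
Isl1, chr13:116309689-116309838, minus strand: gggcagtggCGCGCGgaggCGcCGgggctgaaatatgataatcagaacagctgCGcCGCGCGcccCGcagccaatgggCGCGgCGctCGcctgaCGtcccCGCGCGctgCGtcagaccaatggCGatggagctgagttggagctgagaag
Pax8, chr2:24475600-24475749, minus strand: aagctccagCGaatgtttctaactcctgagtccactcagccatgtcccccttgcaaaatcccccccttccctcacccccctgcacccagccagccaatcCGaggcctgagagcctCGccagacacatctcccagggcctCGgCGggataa
Hnf4a, chr2:163506707-163506810, plus strand: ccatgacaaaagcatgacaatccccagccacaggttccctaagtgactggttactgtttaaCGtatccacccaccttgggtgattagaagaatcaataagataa
Nkx6-1, a factor of ventral spinal cord and pancreatic beta cells, holds 20 CpG in these 150 bases, and Isl1, a factor of motor neurons and of heart progenitors, also holds 20. Six2, which maintains nephron progenitors, holds 14. Pax8, a thyroid and kidney factor, holds 5, and Hnf4a, a factor of liver and gut, holds 1 in 104 bases. Over the 300 bases the ratio was 1.18 for Nkx6-1, 1.13 for Six2, 1.05 for Isl1, 0.288 for Pax8 and 0.183 for Hnf4a. The first 3 and Pax8 carried H3K27me3 in all 5 libraries, and Hnf4a in 1.

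H3K27me3 covered the promoters of nearly all of the 33 genes in both cell types. The promoter window reached 2 kb to either side of the gene end that carried H3K4me3, or of both ends where both or neither did, and it was marked when at least 200 bp of it lay in regions. By this rule 30 of the 33 genes were marked in all 5 H3K27me3 libraries, against 15.3% of all genes. In 26 of the 33 the whole window was covered in all 5 libraries, against 3.82% of all genes. These 26 were 12 of 15 neural, 2 of 3 gut, 5 of 5 heart, 3 of 6 blood and 4 of 4 kidney factors. They include Neurog2 and Neurod1, basic helix-loop-helix factors of neurogenesis, Olig2 of oligodendrocytes and motor neurons, Pax6 of eye and brain, Cdx2 of the intestine, Nkx2-5 and Gata4 of the heart, Gata2 of blood stem cells and Pax2 of the kidney, each at 100% in 2 of 2 HC and 3 of 3 PC libraries.

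**Figure D1:**
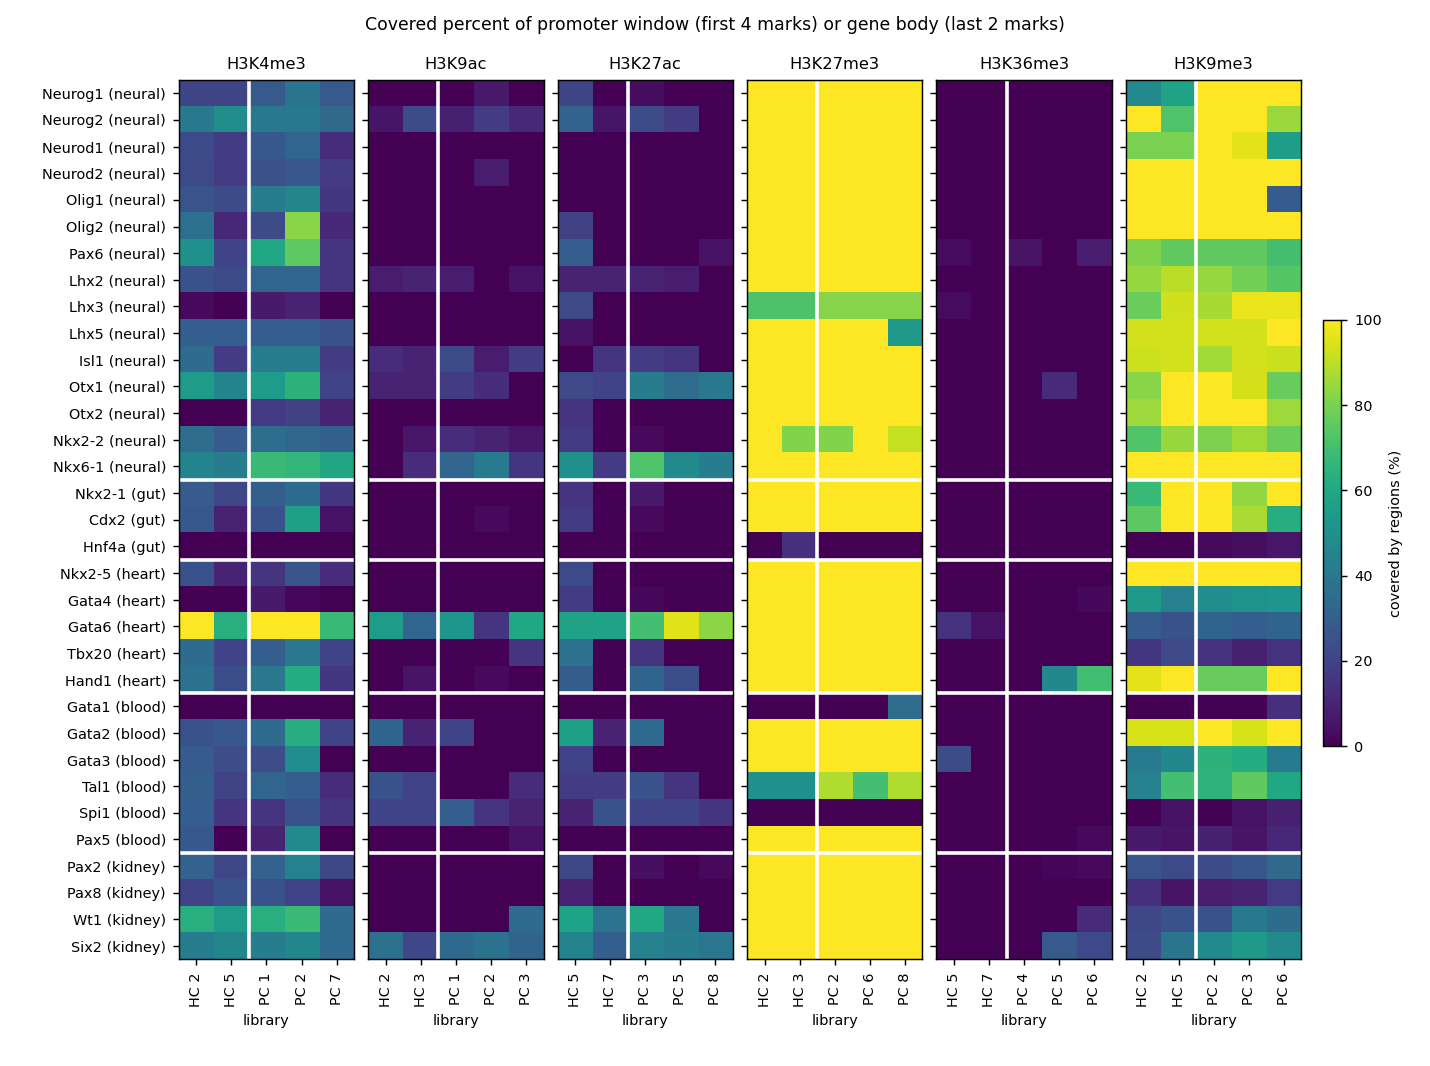
Heat map of the percent of the promoter window (H3K4me3, H3K9ac, H3K27ac and H3K27me3) or of the gene body (H3K36me3 and H3K9me3) covered by regions, for 33 genes in rows and 5 libraries per mark in columns, HC left of PC. H3K27me3 is at 100% in all 5 libraries for 26 genes, and H3K36me3 is at or near 0 for most.

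The genes without it were 3, each lacking H3K27me3 in at least 1 library of each cell type. Spi1 (PU.1, chromosome 2, 91082374 to 91115759), the factor of myeloid and B cells, had 0% in both HC and all 3 PC libraries. Its window lay at the end of the record that carried H3K4me3, with the next gene, Mybpc3, starting at 91118114, 355 bp past the window. No RefSeq start was listed for Spi1, so its window may miss its promoter, and its H3K4me3, H3K9ac, H3K27ac and H3K27me3 values are those of this window. Over the gene body, H3K27me3 common to the libraries of a cell type covered 0% in HC and 0% in PC. Hnf4a had 0% and 13.7% in HC libraries 2 and 3, and 0% in all 3 PC libraries. Gata1, the X-linked factor of red cells and megakaryocytes, had 0% in both HC libraries, and 0%, 0% and 35.7% in PC libraries 2, 6 and 8. The listed start of Gata1 lies outside its window. In windows around the listed starts Gata1 had 0% and 32.3% in HC libraries 2 and 3, and 0%, 0% and 20% in PC, and Hnf4a had 0% in both HC libraries, and 0%, 14.4% and 0% in PC. So these 2 genes were marked in 1 or 2 libraries, and in which ones depended on the window. Across the X chromosome H3K27me3 covered 34.9 and 25.7 Mb in the HC libraries, against 17.9, 6.06 and 8.98 Mb in the PC libraries, and the part of that difference in the Gata1 values was not tested.

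The H3K27me3 regions at these genes were wide. Among marked genes of the list, the widest region that touched the window had a median width of 31.6 and 30.4 kb in HC libraries 2 and 3, and of 32.4, 31.2 and 28.8 kb in PC libraries 2, 6 and 8. Over all marked genes the median was 7.2 and 6.4 kb in HC and 5.6, 5.6 and 4.8 kb in PC, with a 90th percentile of 16.8 to 21.6 kb. The regions at most of the 30 genes were thus wider than at 9 in 10 marked genes. Pax2 lay in the widest, with 107.2 and 61.6 kb in HC libraries 2 and 3, and 88, 52.8 and 60 kb in PC libraries 2, 6 and 8. Cdx2 lay in regions of 72 and 65.6 kb in HC and 36.8, 62.4 and 38.4 kb in PC. Pax8 lay in the narrowest, 12.8 and 14.4 kb in HC and 9.6, 10.4 and 9.6 kb in PC. Some widths rested on 1 library: Neurog1 had 72 kb in HC library 2, against 28.8 kb in HC library 3 and 28.8, 20.8 and 22.4 kb in PC, and Six2 had 97.6 kb in PC library 8, against 33.6 and 39.2 kb in the other PC libraries and 31.2 and 19.2 kb in HC. Widths were described only, since a gap between called regions splits one into 2.

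**Figure D2:**
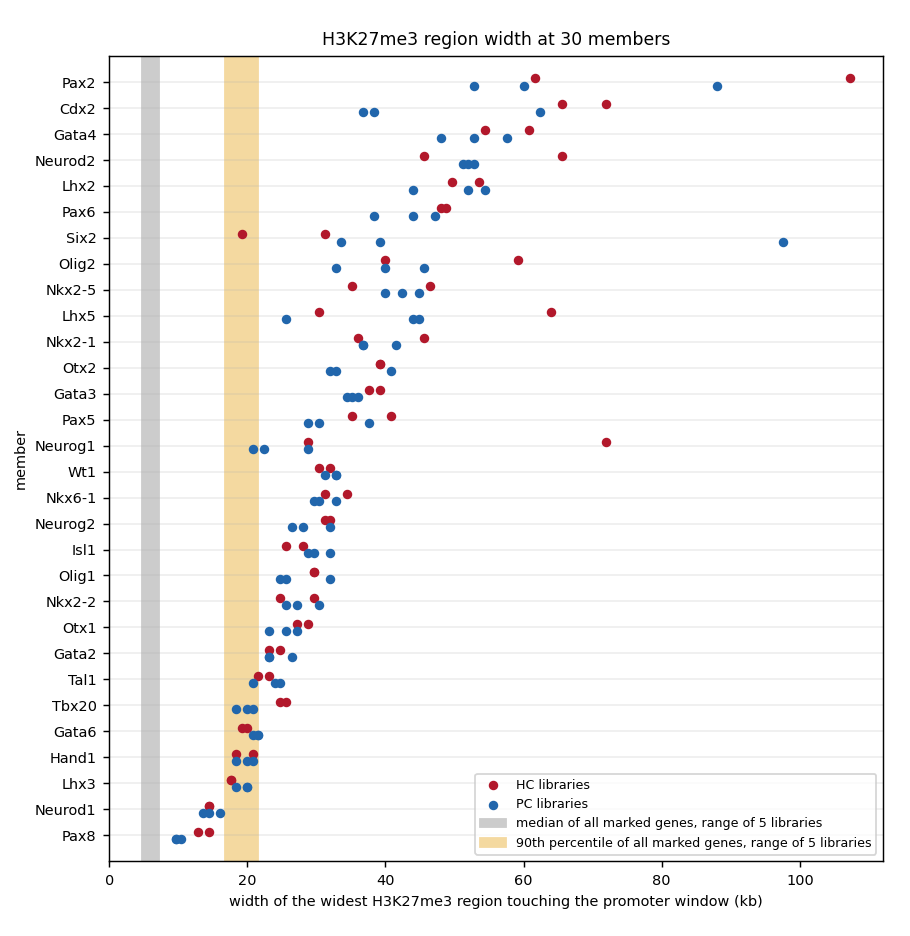
Width in kb of the widest H3K27me3 region touching the promoter window, for the 30 genes marked in all 5 libraries, ordered by their mean, with 1 point per library (2 HC, 3 PC). Grey and sand bands give the median and the 90th percentile of all marked genes over the 5 libraries. Every point lies above the grey band, and Pax2 has the highest mean.

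Between the cell types, no H3K27me3 difference passed the test in the 30 genes tested, and 26 of them were at 100% in every library, where no difference can be seen. Covered percent was compared in HC minus PC with limma, a moderated linear model fitted over all genes with coverage in 2 or more libraries, and p-values were adjusted over all of them (Benjamini-Hochberg, threshold 0.05). The same fit called 3.04% of all 5398 genes tested, 140 higher in HC (2.59%) and 24 lower (0.445%). In the list, without adjustment, 0 had a higher and 1 a lower value at p under 0.05. The median difference was 0 points, against 0.0875 points over all genes tested. The lowest difference was at Tal1, a factor of blood stem cells and the vasculature (chromosome 4, 115056426 to 115071755). Tal1 had 50% in both HC libraries, and 88.1%, 70% and 88.1% in PC libraries 2, 6 and 8. The difference was −32 points (SE 8.92), with an adjusted p of 0.266 by limma. Without PC library 6 the limma call passed, at −38.1 points and an adjusted p of 0.0232. The HC and PC values did not overlap, and the share of all genes without overlap was not counted. In windows of 2 kb around its RefSeq start sites, however, Tal1 was at 100% in all 5 libraries. Lhx3, a factor of motor neurons and the pituitary, had 71.9% in both HC libraries and 81.9% in all 3 PC libraries, a gap of one 800 bp step with no spread within either group (−10 points, limma adjusted p = 0.658). Its limma call passed in 3 alternatives given at the end. The window of Lhx3 also holds the protein-coding gene Qsox2. Lhx5, a factor of forebrain and interneurons, had the highest difference, with 100% in both HC libraries and 100%, 100% and 53.6% in PC, so that it rested on PC library 8. No RefSeq start was listed for Lhx5, so its window, at a single end of the record, may miss its promoter. With both gene ends the Lhx5 difference was 7.74 points.

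**Figure D3:**
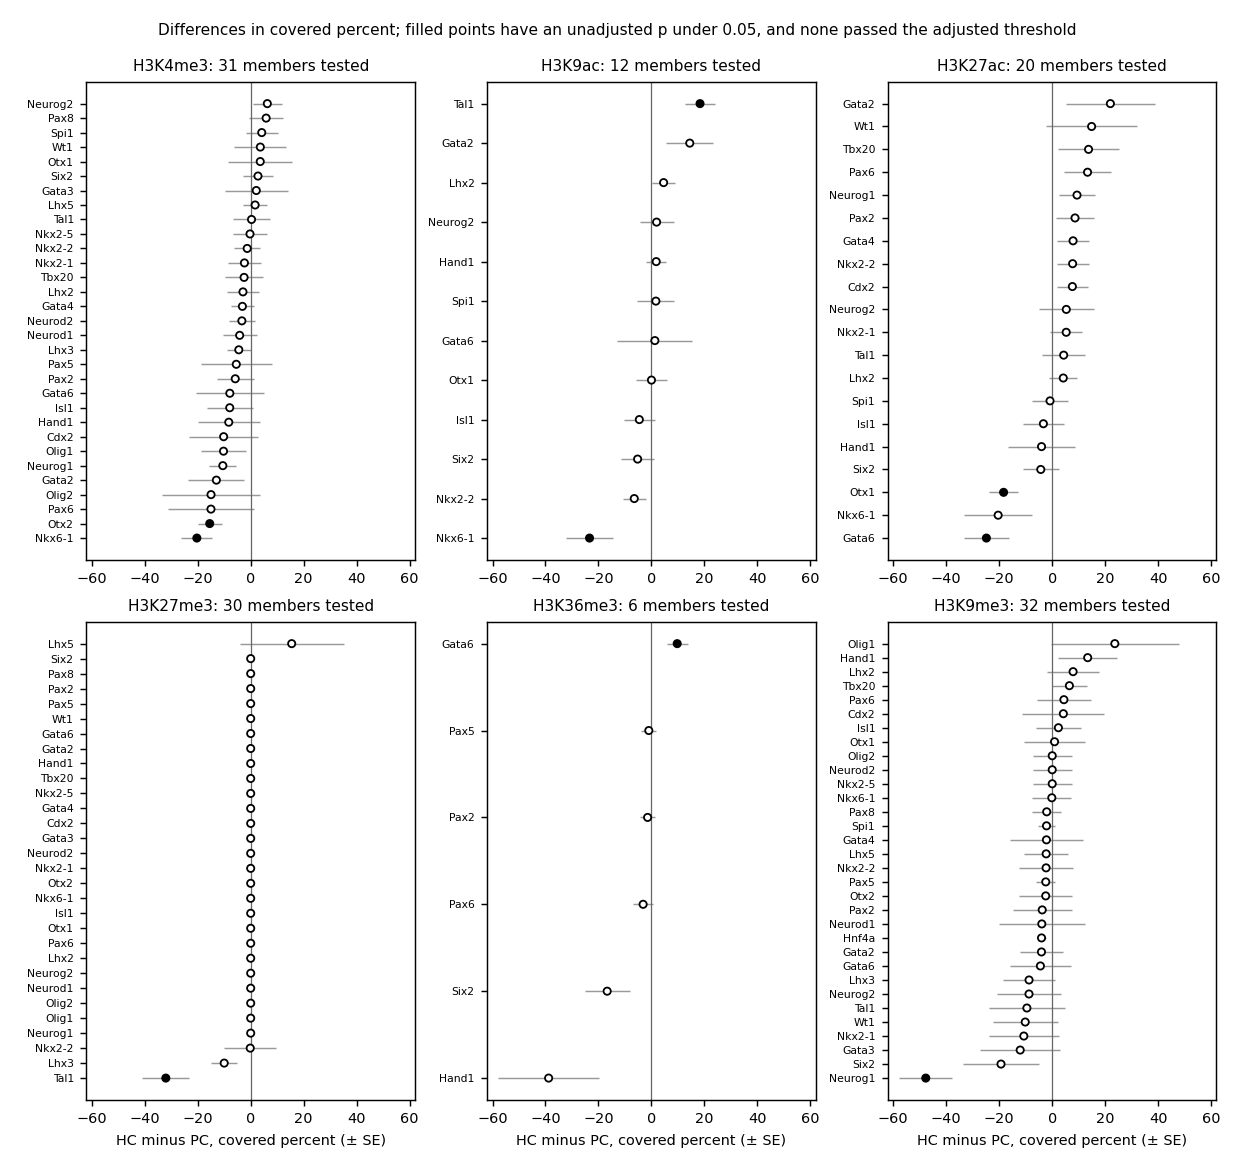
Difference in covered percent, HC minus PC, with its standard error from limma, for the members covered in at least 2 libraries of each mark. Filled points have an unadjusted p under 0.05. The lowest values are Nkx6-1 for H3K4me3 and H3K9ac, Gata6 for H3K27ac, Tal1 for H3K27me3, Hand1 for H3K36me3 and Neurog1 for H3K9me3.

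H3K4me3 was found together with H3K27me3 at most of these promoters. In each cell type 26 of the 33 genes carried both marks in every library, against 16.4% of all genes in HC and 14.3% in PC. In HC these were 13 of 15 neural, 2 of 3 gut, 4 of 5 heart, 3 of 6 blood and 4 of 4 kidney factors. In PC they were 14 neural, 2 gut, 4 heart, 2 blood and 4 kidney factors. In 4 genes of each cell type H3K27me3 was in every library and H3K4me3 was not: Lhx3, Otx2, Gata4 and Pax5 in HC, and Lhx3, Gata4, Gata3 and Pax5 in PC. Most of these had H3K4me3 in some libraries. For Gata4 no RefSeq start was listed, so its window, at a single end of the record, may miss its promoter. Pax5 had 27.4% and 0% in HC libraries 2 and 5, and 10%, 47.4% and 0% in PC libraries 1, 2 and 7, and Gata3 had 23.8%, 48.8% and 0% in PC. In windows around RefSeq start sites, Otx2 and Gata3 carried both marks in every library of both cell types. Nkx2-5 in HC and Cdx2 in PC there no longer had H3K4me3 marked in every library. It covered 0.9% for Nkx2-5 in HC library 5 and 0% for Cdx2 in PC library 7. The counts with both marks stayed at 26 in each cell type. The Spi1 window, whose limits are given above, had H3K4me3 in all 5 libraries and H3K27me3 in none. Hnf4a and Gata1 had H3K4me3 in no library. The marks were measured in separate libraries, so it is not known whether they lay on the same alleles or cells. When each library was cut to the same autosomal length by keeping its widest regions, the counts fell to 16 in HC and 17 in PC.

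H3K4me3 regions at these promoters were not wide in most libraries, in contrast to the H3K27me3 regions. Their median width in marked genes of the list was 1.6 and 1.2 kb in HC libraries 2 and 5, and 1.8, 2.5 and 1.2 kb in PC libraries 1, 2 and 7. Over all marked genes it was 2.2 and 2.0 kb in HC and 2.2, 2.2 and 1.8 kb in PC. The median of the list was thus the lower in every library but PC library 2. Gata6, a factor of heart and endoderm, had the widest by mean, with 8.0 and 3.8 kb in HC, and 5.2, 5.6 and 3.6 kb in PC. Six2 followed with 6.2 and 5.8 kb in HC, and 3.2, 6.0 and 2.8 kb in PC.

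For H3K4me3 no difference between the cell types passed the test in the list, which does not show that the promoters are alike. Of the 31 genes tested 0 were called by limma, where the fit called 0.0139% of all genes, and without adjustment 0 had a higher and 2 a lower value at p under 0.05. No alternative called any. Without PC library 7 the unadjusted lower count was 5 and the smallest limma adjusted p 0.101. The lower count over all genes was then 1283 of 14348, against 188 of 14375 with all 5 libraries. Nkx6-1 (chromosome 5, 101659184 to 101664711) had the lowest difference, with 45% and 42.5% in HC libraries 2 and 5, and 67.5%, 66.1% and 58.6% in PC libraries 1, 2 and 7. Both HC values lay below all 3 PC values (−20.3 points, SE 5.88, limma adjusted p = 1.0), an order whose share over all genes was not counted. Otx2, a factor of forebrain and eye (chromosome 14, 48656781 to 48667644), had 0% in both HC libraries, and 17%, 19.4% and 10% in PC. It was the one gene of the list with this mark in all libraries of a cell type and none of the other cell type's, which held for 0.251% of all genes marked in any library with PC as the marked type, and for 0.163% with HC. The difference was −15.5 points (SE 4.60, limma adjusted p = 1.0). In windows around its RefSeq start sites Otx2 was marked in every library, with 8.98% in both HC libraries and a mean of 18.7% ± 9.07 in PC (SD, n = 3). Neurog2 had the highest difference, 6.28 points, with 40.6% and 49.2% in HC, and 40.6%, 40.6% and 34.8% in PC, where the groups met.

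H3K9ac was sparse at these promoters, and H3K27ac was seldom found in every library. H3K9ac marked 9 and 12 of the 33 genes in HC libraries 2 and 3, and 10, 12 and 12 in PC libraries 1, 2 and 3. Over all genes the share was 57.7% to 62.8% per library, and over the 3352 genes with H3K27me3 in all 5 libraries it was 58.6% to 71.2%. Only 3 genes of the list carried H3K9ac and H3K27ac in all 10 libraries: Gata6, Six2 and Spi1, the last in a window that may miss its promoter. In 4 genes, Neurod1, Olig1, Hnf4a and Gata1, neither mark was found in any library. The shares of all genes with both marks in all 10 libraries, or with neither, were not counted. Taken singly, H3K9ac was in all 5 libraries for 15.2% of the 33 and 53.8% of all genes, and in none for 45.5% and 32.8%. H3K27ac was in all 5 for 15.2% and 53.4%, and in none for 18.2% and 30%. Gata6 was the most acetylated, with H3K9ac over 55% and 32.7% of the window in HC libraries 2 and 3, and 52.7%, 15% and 60% in PC libraries 1, 2 and 3. Six2 had 36.8% and 21.8% in HC, and 34.3%, 37.5% and 31.8% in PC. Both genes also carried H3K27me3 over the whole window in all 5 libraries.

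The neural factor Nkx6-1 and the blood factor Tal1 had the lowest and the highest H3K9ac difference. Limma called 0 of the 12 genes tested, where the fit called 0.00729% of all genes, with 1 higher and 1 lower value at p under 0.05 before adjustment, and the other 21 genes were covered in fewer than 2 libraries. No alternative called any. Nkx6-1 had 0% and 12.5% in HC, and 32.5%, 41.4% and 15% in PC, so that both HC values lay below all 3 PC values (−23.4 points, SE 8.71, limma adjusted p = 0.805). Tal1 had 25% and 20% in HC, and 0%, 0% and 12.5% in PC, so that both HC values lay above all 3 PC values (18.3 points, SE 5.60, limma adjusted p = 0.656). The share of all genes with either order was not counted.

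The blood factors were also read in windows around their RefSeq start sites, chosen after seeing the data because Gata3's listed start lies outside its window at the gene end. Of the 6, Spi1 had no listed start, Gata1 had H3K9ac over 0% in all 5 libraries, and Pax5 had it in PC library 3 alone (5%). Gata3, which directs T cells and also acts in other tissues, had H3K9ac over 65% and 70% in HC, and 35%, 0% and 30% in PC (45.9 points, SE 10.7, limma adjusted p = 0.423), against 0% in all 5 libraries in its window at the gene end. Tal1 had 48.3% and 29.7% in HC, and 0%, 0% and 18.6% in PC (32.8 points, SE 8.49, limma adjusted p = 0.46). Gata2 had 57.8% and 39.2% in HC, and 32.5%, 19.2% and 22.5% in PC (23.8 points, SE 7.65, limma adjusted p = 0.66). In these 3 genes both HC values lay above all 3 PC values, an order whose share over all genes was not counted. None passed the adjusted threshold, which 0.0146% of all genes did in this fit. Before adjustment 3 of the 13 list genes tested were higher and 1 lower at p under 0.05, against 262 higher and 543 lower of 13678 genes. The lower one was Nkx6-1 (−40.1 points, SE 15.3, limma adjusted p = 0.786). Gata3, Tal1 and Gata2 kept H3K27me3 at 100% in these windows in all 5 libraries. Tal1 and Gata2 also act in endothelium. H3K9ac coverage summed over 6 endothelial markers was 40 to 55 in HC libraries and 27.5 to 32.5 in PC libraries, with Cdh5, Emcn and Tie1 at 0 in HC and Emcn, Pecam1 and Tek at 0 in PC. Over 6 muscle markers the sum was 15 to 42.2 in HC and 0 in PC, with Actc1, Myf5, Myh3 and Myod1 at 0 in every library. Over 6 epidermal markers it was 60 to 65 in HC and 20 to 25 in PC, with Krt5, Krt14, Krt15 and Trp63 at 0 in every library. In these 3 lists both HC sums lay above all 3 PC sums. Over 6 neural markers it was 30 to 40 in HC and 50 to 85 in PC, with Snap25, Stmn2 and Tubb3 at 0 in every library. Summed over 8 blood markers it was 32.2 to 37.2 in HC and 29.7 to 39.7 in PC, with Cd48, Cd53, Hba-a1 and Hbb-bs at 0 in every library, and Csf1r and Ptprc at 0 in all PC libraries. The part of other cell types in the values of these 3 genes was not tested.

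H3K27ac at these genes depended on 1 HC library. It marked 26 and 11 of the 33 genes in HC libraries 5 and 7, and 18, 11 and 7 in PC libraries 3, 5 and 8. In 8 genes HC library 5 was the only library with the mark, and no other library had such a gene. Gata3 is among these 8, and its listed start lies outside its window. Around that start Gata3 had H3K27ac over 90% in both HC libraries, and over 80%, 4.98% and 40% in PC libraries 3, 5 and 8. The difference there was 48.3 points (SE 19.4, limma adjusted p = 0.566). HC library 5 had the shortest list, 46.1 Mb, against 91.7 Mb in HC library 7 and 98.4, 70.2 and 86 Mb in PC, and its title carries a suffix R that the labels do not explain and that H3K27me3 library 3 of HC carries too. It marked 58.7% of all genes, against 61.7% in HC library 7 and 63.7%, 60.5% and 61.9% in PC. Among 365 other genes whose H3K27me3 regions averaged at least 20 kb it marked 76.7%, against 52.6% in HC library 7 and 71%, 59.7% and 57.3% in PC.

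**Figure D4:**
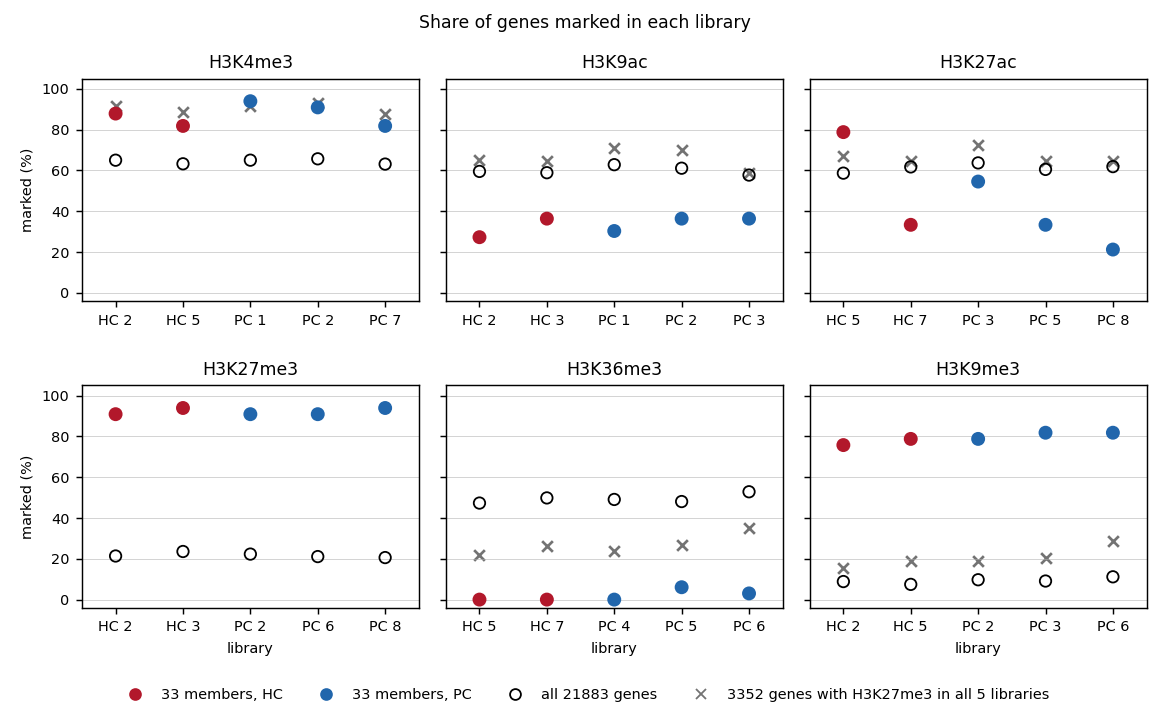
Share of genes marked in each library (percent), by mark, for the 33 list members (red in HC, blue in PC), for all 21883 genes (open circles) and for the 3352 genes with H3K27me3 in all 5 libraries (crosses, not drawn for H3K27me3). For H3K27ac the members stand above all genes in HC library 5 alone.

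Limma called 0 of the 20 genes tested for H3K27ac, where the fit called 0.0141% of all genes, with 0 higher and 2 lower values at p under 0.05 before adjustment. No alternative called any. Without HC library 5 the counts were 13 tested, 0 called, and again 0 higher and 2 lower unadjusted. Without HC library 7 they were 20 tested, 0 called, and 8 higher and 1 lower unadjusted, so the unadjusted count rested on the HC library kept. Gata6 had the lowest difference, with 57.7% in both HC libraries, and 70%, 95% and 82.7% in PC (−24.9 points, SE 8.60, limma adjusted p = 0.504). Otx1, a forebrain factor, had 22% and 20% in HC, and 42.5%, 35.6% and 40% in PC (−18.4 points, SE 5.61, limma adjusted p = 0.446). In both genes the HC values lay below all PC values, an order whose share over all genes was not counted. Gata2 had the highest difference, 22 points, with 57.2% and 10% in HC, and 35%, 0% and 0% in PC, and without HC library 5 it was −1.67 points.

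H3K36me3, the mark of transcribed gene bodies, was nearly absent. Gene bodies counted as marked from 25% coverage up. By that rule 31 of the 33 genes were marked in none of the 5 libraries, against 43.3% of all genes, and 0 were marked in every library, against 42.2%. Hand1, a heart and limb factor (chromosome 11, 57828713 to 57832147), had 0% in both HC libraries, and 0%, 46.6% and 69.9% in PC libraries 4, 5 and 6. Six2 had 0% in both HC libraries, and 0%, 28.2% and 21.9% in PC. Both were thus covered in PC libraries 5 and 6 alone. Those lists hold 167459 and 192688 regions, against 72064 in PC library 4 and 68411 and 98098 in HC. They cover 481 and 612 Mb, against 482 Mb in PC library 4 and 379 and 475 Mb in HC. Gata6 had 14.5% and 4.94% in HC, and 0% in all 3 PC libraries. Limma called 0 of the 6 genes tested, with 1 higher and 0 lower values at p under 0.05 before adjustment, and called 0.0% of all genes. No alternative called any.

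H3K9me3 lay over the bodies of most of these genes. By the same 25% rule 24 of the 33 were marked in all 5 libraries, against 3.94% of all genes. These were 15 of 15 neural, 2 of 3 gut, 4 of 5 heart, 3 of 6 blood and 0 of 4 kidney factors. The median over the 33 genes of the mean covered share was 82.1%, against 2.21% over all genes. Neurod2, a factor of maturing neurons, Olig2 and Nkx2-5 were at 100% in both HC and all 3 PC libraries. At the low end Hnf4a, Tbx20 (a heart factor), Gata1, Spi1, Pax5 (a B cell factor) and Pax8 were under 25% in every library. Pax2, Wt1 (a factor of kidney and gonad) and Six2 passed in some libraries only.

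Long genes had less of it. In the list 8 of 8 genes under 5 kb were marked in all 5 libraries, 11 of 12 from 5 to 20 kb, and 5 of 13 of 20 kb and over. Among all 3352 genes with H3K27me3 in all 5 libraries the shares were 25.9%, 14.2% and 3.02% in the same length classes. The share also followed the width of the H3K27me3 region in genes outside the list. It was 1.07% of 839 genes with a mean width under 5 kb, 2.56% of 1408 genes from 5 to 10 kb, 12.5% of 710 genes from 10 to 20 kb, and 50.7% of 365 genes of 20 kb and over. In the list 21 of 26 genes in the widest class were marked.

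**Figure D5:**
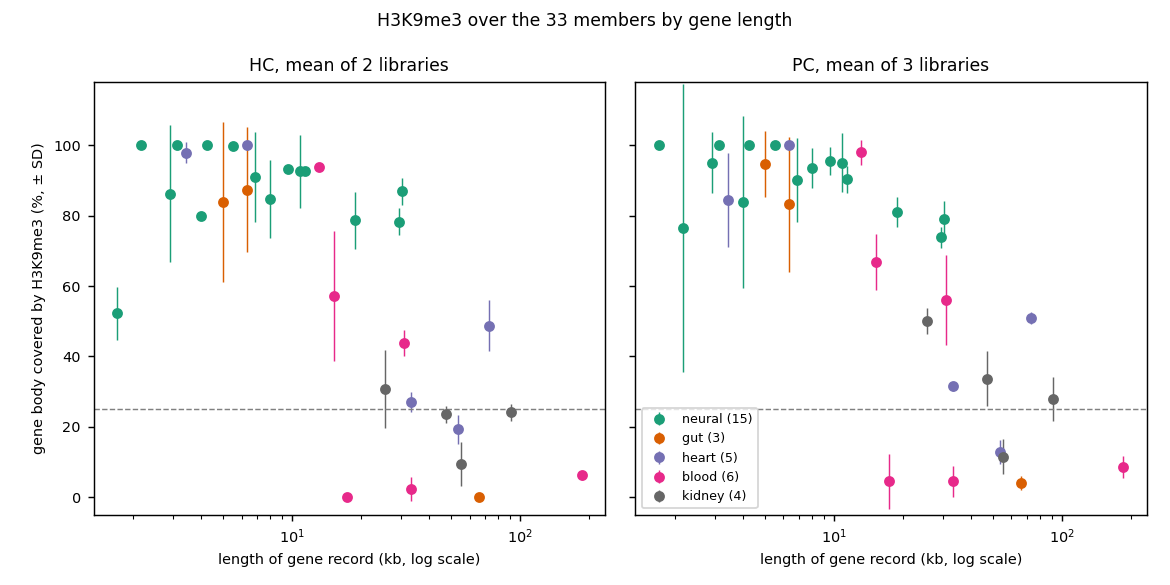
Percent of the gene body covered by H3K9me3 (mean ± SD over 2 HC libraries, left, and 3 PC libraries, right) against the length of the gene record in kb on a log scale, coloured by group. The dashed line is the 25% threshold. Most genes under 20 kb lie above it, and 8 of 13 genes of 20 kb and over fell below it in at least 1 library.

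H3K9me3 and H3K27me3 were called over the same bases of these genes. Bases with H3K9me3 in every library of a cell type came to 257 kb of the bodies of the 32 autosomal genes in HC and 239 kb in PC. All of them, 100% in HC and 100% in PC, also lay in H3K27me3 common to that cell type. Over all 20661 autosomal gene bodies the share was 24.2% in HC and 28.4% in PC, and over the autosomes 11% in HC and 13.9% in PC. The reverse was not the case. H3K27me3 covered the whole body of Olig1 in PC and of Neurog1 in HC, where H3K9me3 covered 29.1% of Olig1 and 47% of Neurog1. In Pax5, the longest of the 33 genes, H3K27me3 covered 32% of the body in HC and 15.6% in PC, and H3K9me3 4.89% in HC and 2.31% in PC.

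Of the 32 genes tested for H3K9me3 limma called 0, with 0 higher and 1 lower value at p under 0.05 before adjustment, and called 0.0% of all genes. No alternative called any. Without PC library 6 the unadjusted counts were 1 higher and 4 lower and the smallest limma adjusted p 0.0783. Over all 8192 genes tested in that setting the unadjusted counts were 158 higher and 1215 lower. Neurog1, a factor of sensory neurons (chromosome 13, 56250478 to 56252180), had the lowest difference, with 47% and 57.5% in HC libraries 2 and 5, and 100% in all 3 PC libraries. Both HC values lay below every PC value (−47.7 points, SE 9.91, limma adjusted p = 0.528), an order whose share over all genes was not counted. The gene record is 1703 bp long, so one 800 bp step is a large share of it. Olig1, a factor of oligodendrocytes, had the highest difference, 23.6 points, with 100% in both HC libraries, and 100%, 100% and 29.1% in PC, so that it rested on PC library 6.

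Other factors of these lineages, 59 genes in a separate list (20 neural, 12 gut, 8 heart, 12 blood and 8 kidney, 1 of them in 2 groups), were counted in the same way. In that list 49 genes carried both H3K4me3 and H3K27me3 in every HC library and 45 in every PC library. In all 5 libraries H3K27me3 marked 90.9% of the 33 genes and 86.4% of the 59, and H3K9me3 72.7% of the 33 and 49.2% of the 59. H3K9ac marked 15.2% of the 33 and 33.9% of the 59, H3K27ac 15.2% of the 33 and 37.3% of the 59, and H3K36me3 0% of the 33 and 10.2% of the 59. Limma called 0 of the 59 in each of the 6 marks. Before adjustment, 1 of the 54 tested for H3K27me3 was higher and 0 lower at p under 0.05. The 13 chondrocyte factors differed in their counts. Both marks were found in every library for 8 in HC and 5 in PC, and H3K36me3 in all 5 libraries for 6. Limma called 2 of the 13 higher in HC for H3K27me3. Sox9, the central regulator of cartilage, had 93% ± 7.07 in HC (SD, n = 2) and 0% in all 3 PC libraries (limma adjusted p = 0.018). Sp7, which directs bone formation, had 91.3% ± 1.79 in HC (SD, n = 2) and 0% in all 3 PC libraries (limma adjusted p = 0.0141). Whether these lists differ from the 33 genes was not tested.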

How the data were processed

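The authors deposited, per library, a list of region coordinates in base pairs, and an intersected list for every mark in each cell type; these coordinates carry no score, so no depth or counting error can be given. Per the submitters' processing notes, FastQC, Picard and build mm10 were used; genes were taken from the RefSeq table of the same build (GRCm38.p6); aligner, region caller and any role of IgG in calling: not given in the sources used here. The 11 IgG samples (4 HC, 7 PC) were not analysed here. The members and lists were chosen with earlier results of these data known.

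From the lists the percent of each gene's window or body covered by regions was computed (Python 3.11.15, pandas 2.3.3). The RefSeq table gives no strand, so the gene end with H3K4me3 in at least 1 library was used, which favours H3K4me3. For 11 members this picked 1 end and for 22 both. A listed RefSeq start lay in the window for 21 of 25 members and 90.9% of genes. Another annotated gene lay in the window of 18 members, protein-coding in 1. HC and PC were compared per mark with limma 3.58.1 (trend and robust) in R 4.3.3, over genes covered in at least 2 libraries, and the fit was tested on simulated data. With 2 and 3 libraries an exact permutation test cannot go below p = 0.1, so none was used.

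Values are given per library for members with a call, members marked in 1 cell type only, the highest and lowest difference per mark, members lacking H3K27me3, and examples of those with the highest H3K27me3; others were named after their values were seen. Alternatives were a 1 kb window, both gene ends, equal autosomal length, regions of at least 2 grid steps, bodies with 2 kb added, a log2 scale, another filter, a plain fit and leaving out each library. Start-site windows, and counts without HC library 5 for H3K27ac, were chosen after seeing the data.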

Additional observations from a re-analysis of the deposited data

How the results depend on the processing

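Counts of members called by limma stayed at 0 under every alternative for H3K4me3, H3K9ac, H3K27ac, H3K36me3 and H3K9me3. For H3K27me3 the count was 1 with the 1 kb window (Lhx3, −20.0 points, limma adjusted p = 0.00212) and with both gene ends (Lhx3, −10.0, 7.39e-05). It was also 1 without trend and robust settings (Lhx3, −10.0, 0.00029) and without PC library 6 (Tal1). In the fits with both gene ends and without trend and robust settings, Lhx3 had the same covered percents as in the reported fit. They had no spread within either group. Only the error estimate and the adjustment over genes differed, so these 2 passes are no independent support. Over all genes the H3K27me3 fit called 34 to 402 genes across alternatives, against 164; the other marks ranged from 0 to 148 for H3K4me3 (2 as reported), 0 to 230 for H3K9ac (1), 0 to 121 for H3K27ac (2), 0 to 13 for H3K36me3 (0) and 0 to 392 for H3K9me3 (0). Genes with both H3K4me3 and H3K27me3 were 16 in HC and 17 in PC at equal autosomal length, a construction that drops narrow regions, and 19 in each with at least 1000 bp covered; the remaining alternatives gave 24 to 28 in HC and 23 to 29 in PC. The authors' intersected lists gave 25 in HC and 26 in PC. Members with H3K27ac in at least 1 HC library numbered 27, and 11 without HC library 5. The Gata2 difference in H3K27ac reversed without HC library 5 (−1.67 points) and was 45.6 points without HC library 7.

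A replicate block could be fitted for H3K9ac alone, where numbers 2 and 3 occur in both cell types: it called 0 members, with a smallest adjusted p of 0.423. Deviations of same-numbered libraries from the mean of their cell type correlated at −0.018 and 0.0692 across genes. With 2 HC libraries these deviations mirror each other, so the 2 values are not independent. They cannot decide whether same-numbered libraries were paired. For the other marks no paired analysis was possible because HC and PC share fewer than 2 numbers. Depth is unknown, so an absent region may be one below detection.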
